A study of Homo sapiens with 12 samples.

Results

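The proteasome subunit genes were the rows of the deposited gene table named PSMA, PSMB, PSMC, PSMD, PSME, PSMF or PSMG followed by a number, with the inducible subunits PSMB8 and PSMB9 left out. The rule took 46 of 29744 gene rows, and 44 of them were among the 14417 genes with enough counts to be tested. The 12 RNA-seq libraries came from 4 human breast cell lines, each with 3 biological replicates. A10 (MCF10A) is a mammary epithelial line that does not form tumours, and the other lines descend from it. NeoT (MCFNeoT) carries a mutant HRAS introduced into MCF10A and stands for benign hyperplasia. T1 is MCFT1 (atypical hyperplasia) and CA1 is MCFCA1 (invasive cancer), both taken from this HRAS-bearing lineage after growth as xenografts. The design text calls all 4 lines triple-negative, and no library had a drug or other treatment named in its labels. Each stage is represented by a single cell line, so a stage and the line that stands for it cannot be told apart. The stated aim was to test how reproducibly DNA, RNA and peptides can be taken from the same material.

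The proteasome is the protease that degrades proteins marked with ubiquitin chains. Its barrel-shaped 20S core is built of outer alpha rings, which gate the entrance, and inner beta rings, which carry the cutting sites PSMB5, PSMB6 and PSMB7. A 19S cap binds the ubiquitin chain, removes it, and unfolds the substrate with a ring of PSMC ATPases, while other caps (PSME) and dedicated chaperones (PSMG and some PSMD proteins) open or assemble the particle.

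Library totals ran from 18032404 to 35730417 estimated counts. Ribosomal RNA rows took 0.954% to 2.18% of counts in 11 libraries and 7.763% in T1 replicate 1. NeoT had the widest spread between replicates, with a biological coefficient of variation of 15.9% against 6.38% to 8.63% in the other lines. HRAS itself was 3.71-fold higher in NeoT, 2.45-fold higher in T1 and 4.68-fold higher in CA1 than in A10. All 12 listed mammary epithelial markers were tested, and their summed level ran from 9038.6 to 10115 CPM in A10 and 14238 to 14597 in NeoT, with 14541 to 15490 in T1 and 26095 to 27526 in CA1 (CPM is the TMM-scaled count on a common library size). ITGB4 alone was at a mean of 9350 CPM in NeoT, against 1060 in A10. By the tests described below, 4 of the 12 markers were higher in NeoT than in A10 and 7 lower (median log2 -2.28). Of all genes tested, 33.7% were higher and 36.7% lower. In NeoT the basal marker TP63 was at 0 CPM and the epithelial cadherin CDH1 was at a mean of 0.691 CPM. The 7 leukocyte markers summed to 70.3 to 73.7 CPM in A10 and 204 to 220 in NeoT, with 95.5 to 104 in T1 and 102 to 106 in CA1. Nearly all of this was CD14 and CD68, with CD68 at a mean of 8.27 CPM in A10 and 159 in NeoT, while PTPRC and CD3E had no count in any library. The 8 listed fibroblast markers summed to 133 to 141 CPM in A10 and 612 to 680 in NeoT. In T1 the sum was 2.56 to 2.98, and in CA1 3.63 to 4.73. In A10 most of it was DCN and POSTN (means of 69.1 and 62.3 CPM), and in NeoT nearly all was DCN. COL1A1 was at 8.14 CPM in NeoT, against 5.09 in A10, while POSTN, COL1A2 and COL3A1 were under 1 CPM in NeoT. Of the 6 tested, 2 were higher and 1 lower in NeoT than in A10. The 5 endothelial markers summed to 2.59 to 10.8 CPM in A10 and NeoT, 82.9 to 90.6 in T1 and 23.7 to 25.0 in CA1. PECAM1 made up most of it in T1 and CA1 (means of 85.6 and 24 CPM), and KDR in A10 (5.81 CPM). The 6 adipocyte markers summed to 4.78 to 5.20 CPM in A10 and 59.8 to 105 in the other lines. Mean PPARG was 4.89 CPM for A10, while CA1 reached 97.3, NeoT 48 and T1 40.3. CIDEC was at a mean of 23.6 CPM in NeoT and LPL at 24.3 in T1, against 0.0273 and 0 in A10. ADIPOQ was at 0 in all lines. Of the 5 tested, 5 were higher and 0 lower in NeoT than in A10. The same counts were 4 and 0 for CA1, and 3 and 1 for T1. The part of these markers in the results was not tested. In these bulk samples, fewer cells of a kind and less RNA per cell cannot be told apart. The labels do not say that replicates were separate cultures, so p-values measure the spread between these libraries.

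Proteasome transcripts stood highest in A10 and lowest in NeoT for much of the family, with most differences under 2-fold. Before any scaling, the 46 genes together took 0.543% ± 0.0125 of the counts outside ribosomal RNA in A10 and 0.405% ± 0.00705 in NeoT, with 0.466% ± 0.00162 in T1 and 0.423% ± 0.00225 in CA1 (SD, n = 3). Their summed scaled level was 4836 ± 99.7 CPM in A10 and 4229 ± 116 in NeoT, with 4407 ± 26.6 in T1 and 4400 ± 34.3 in CA1 (SD, n = 3). Every A10 library was above every library of the other lines in both measures. By mean level A10 was the highest line for 24 of 44 tested genes, of which 8 differed from the line next below. NeoT was the lowest line for 23, of which 15 differed from the line next above. CA1 was the highest line for 13 genes and the lowest for 10, of which 8 and 5 differed from the next line. The family was therefore not ordered by stage. The order of lines was not counted over all genes. The fold between a gene's highest and lowest line had a median of 1.54 and ran from 1.07 to 2.50 (ratios of mean CPM), and it was 1.5 or more for 24 genes.

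**Figure D1:**
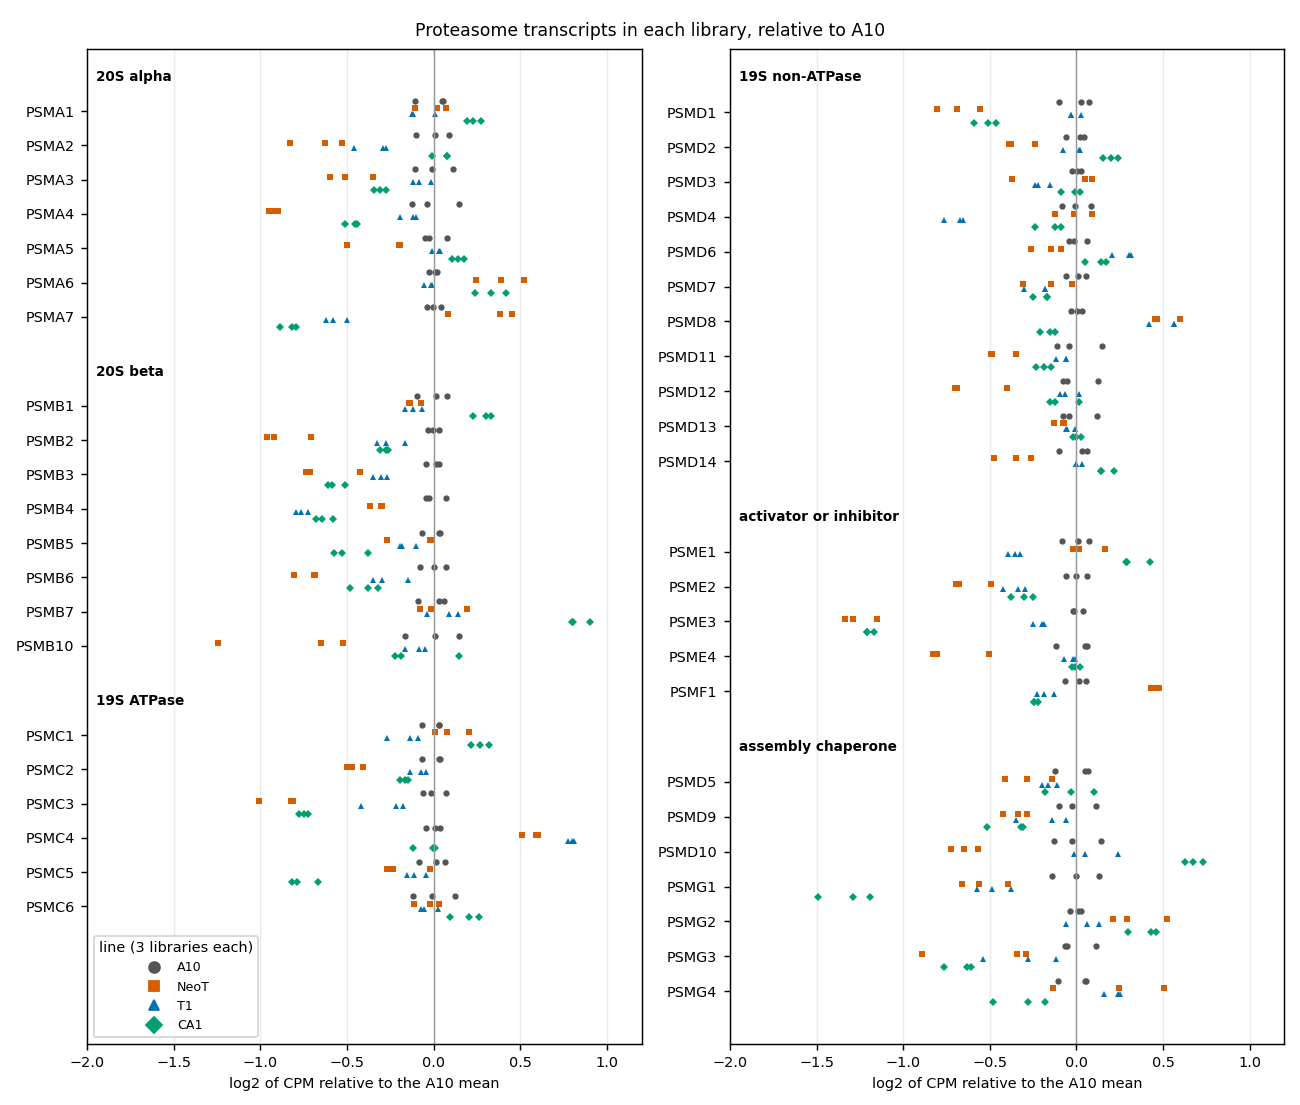
Level of each of the 44 tested proteasome genes in each of 12 libraries, as log2 of CPM relative to the mean of A10, with genes grouped by role and 3 points per line. NeoT points lie left of A10 for much of the family, while those of PSMC4, PSMD8, PSMF1, PSMA6, PSMG2 and PSMA7 lie to its right. CA1 points of PSMB7 and PSMD10 stand to the right of the other lines.

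Calls below are edgeR quasi-likelihood tests on all 14417 genes, at a Benjamini-Hochberg adjusted p under 0.05. In NeoT against A10, 6 proteasome genes were higher and 25 lower of 44 (13.6% and 56.8%), beside 33.7% and 36.7% of all genes tested (70.4% either way). The median log2 fold change was -0.31 for the family and -0.04 for all genes. In T1 against A10, 3 were higher and 14 lower, where 26% and 25.9% of all genes were called (51.9% either way), with a median of -0.11. In CA1 against A10, 11 were higher and 21 lower, where 34.4% and 36.5% of all genes were called (70.9% either way), with a median of -0.16. The 3 comparisons share the A10 libraries, so they are not independent of each other. A call with at least a 2-fold change was made for 1 member in NeoT against A10 (PSME3), where 34.3% of all genes had one, for 0 in T1 against A10 (18.8%) and for 2 in CA1 against A10 (PSME3 and PSMG1, 34.1%). Most of the family's changes were small: against a 1.5-fold minimum (edgeR's glmTreat) 0 were higher and 5 lower in NeoT (18.3% and 22.2% of all genes), 1 and 1 in T1 (10.5% and 10.4%), and 1 and 5 in CA1 (19.1% and 20.9%).

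Between the derived lines, T1 stood above NeoT for 21 genes and below it for 8, where 35% and 32.4% of all genes were called (67.4% either way). CA1 stood above NeoT for 22 and below it for 9, where 33.8% and 32.7% of all genes were called (66.4% either way). CA1 against T1 was balanced, with 12 higher and 14 lower, where 30.4% and 31.9% of all genes were called (62.2% either way). Changes of at least 2-fold were called for PSME3 in T1 against NeoT (30.5% of all genes), for PSMA7 and PSMD10 in CA1 against NeoT (31.2%), and for 0 members in CA1 against T1 (22.9%). With upper-quartile scaling PSME3 in T1 against NeoT came out under 2-fold. Against the 1.5-fold minimum these counts were 3 higher and 1 lower for T1 against NeoT (20% and 16.1% of all genes), 2 and 3 for CA1 against NeoT (19.3% and 17%), and 1 and 3 for CA1 against T1 (12.4% and 14.4%). In all, 42 of 44 genes differed somewhere among the 4 lines, where 89.8% of all genes did. The lid subunits PSMD3 and PSMD13 did not pass that test (adjusted p = 0.147 and 0.494). Without the libraries that stood apart, T1 replicate 1 and NeoT replicate 3, 7 genes were higher and 25 lower in NeoT than in A10, 3 and 17 in T1, and 11 and 23 in CA1. The shares of all genes called in that fit are not given here.

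The alpha ring was lower in NeoT for 4 of 7 genes and higher for 2, and PSMA7 ran in opposite directions in NeoT and CA1. In NeoT 57.1% of the alpha genes were lower and 28.6% higher, beside 36.7% and 33.7% of all genes tested. PSMA7, an alpha ring subunit on chromosome 20 (62136733 to 62143394, GRCh38), stood at 273, 267 and 282 CPM in A10, 375, 357 and 290 in NeoT, 194, 178 and 183 in T1, and 148, 156 and 158 in CA1. The 4 lines did not overlap in any library, although NeoT replicate 3 came close to A10. PSMA7 was 1.24-fold higher in NeoT than in A10 (log2 0.32, SE 0.12, adjusted p = 0.00145), 1.48-fold lower in T1 (adjusted p = 6.6e-06) and 1.78-fold lower in CA1 (log2 -0.83, SE 0.036, adjusted p = 2.44e-08). The step from NeoT to CA1 was 2.22-fold down (adjusted p = 2.58e-10).

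PSMA4, another alpha ring subunit (chromosome 15, 78540405 to 78552417), had a different order. It stood at 154, 127 and 135 CPM in A10, 74.4, 71.7 and 73.1 in NeoT, 121, 128 and 130 in T1, and 102, 97.5 and 101 in CA1. NeoT was below every other library, CA1 was next, and T1 overlapped A10. The fall was 1.9-fold in NeoT (log2 -0.93, SE 0.081, adjusted p = 1.4e-09) and 1.39-fold in CA1 (adjusted p = 1.03e-05), and T1 did not pass the test (log2 -0.14, adjusted p = 0.111). Of the remaining alpha genes, PSMA2, PSMA3 and PSMA5 also fell in NeoT, by 1.58-fold, 1.4-fold and 1.23-fold. PSMA6 was 1.31-fold higher in NeoT and 1.26-fold higher in CA1. PSMA1 was called in CA1, where it was 1.17-fold higher. PSMA8, the form of the testis, had 0 counts in all 12 libraries, which allows at most 0.0326 CPM in A10 and 0.0474 in NeoT, with 0.0356 in T1 and 0.0463 in CA1 (3 counts over the line, counting error only).

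Among the beta ring genes none rose in NeoT or T1, while 5 of 8 fell in NeoT, 4 in T1 and 5 in CA1, where 2 rose. Lower calls made up 62.5%, 50% and 62.5% of these genes, beside 36.7%, 25.9% and 36.5% of all genes tested. Higher calls made up 0%, 0% and 25%, beside 33.7%, 26% and 34.4% of all genes. The catalytic genes parted from each other. PSMB5, the chymotrypsin-like site (chromosome 14, 23025851 to 23035220), stood at 150, 140 and 151 CPM in A10, 145, 146 and 122 in NeoT, 130, 137 and 128 in T1, and 98.8, 113 and 102 in CA1. CA1 lay below all libraries of the other lines, while NeoT overlapped both A10 and T1. PSMB5 was 1.4-fold lower in CA1 than in A10 (log2 -0.49, SE 0.068, adjusted p = 1.66e-05), and neither NeoT (log2 -0.09, adjusted p = 0.283) nor T1 (log2 -0.16, adjusted p = 0.0925) passed the test. A fit to T1 and A10 alone did call PSMB5 lower in T1 (adjusted p = 0.0204).

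PSMB6, the caspase-like site (chromosome 17, 4796164 to 4798495), stood at 75.9, 80.3 and 84.3 CPM in A10, 49.8, 45.8 and 49.7 in NeoT, 72.4, 65.3 and 62.9 in T1, and 57.3, 64.1 and 61.6 in CA1. NeoT was below all other lines and A10 above them, with T1 and CA1 overlapping between. PSMB6 fell 1.66-fold in NeoT (adjusted p = 1.38e-07), 1.2-fold in T1 (adjusted p = 0.0081) and 1.31-fold in CA1 (adjusted p = 0.000189).

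PSMB7, the trypsin-like site (chromosome 9, 124353465 to 124415442), stood at 119, 107 and 117 CPM in A10, 131, 113 and 108 in NeoT, 126, 111 and 121 in T1, and 199, 213 and 199 in CA1. The first 3 lines overlapped, and CA1 was above them in every library. The rise in CA1 was 1.78-fold against A10 (log2 0.83, SE 0.057, adjusted p = 1.72e-08), with log2 0.77 against T1 and 0.80 against NeoT. PSMB7 was the only proteasome gene whose deposited values were more than 0.01 from a whole number in all 12 libraries, and how its reads were divided is not given in the sources used here.

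PSMB10, which takes the place of PSMB7 in the immunoproteasome (chromosome 16, 67934506 to 67936850), was the least abundant beta gene per length among those with counts. It stood at 18.4, 20.7 and 22.8 CPM in A10, 13.1, 14.4 and 8.71 in NeoT, 19.5, 19.9 and 18.4 in T1, and 17.7, 22.8 and 18.1 in CA1. NeoT was below every other library and its own replicates were wide apart, while the remaining lines overlapped. PSMB10 was 1.69-fold lower in NeoT than in A10 (log2 -0.76, SE 0.24, adjusted p = 0.000229), and the log2 value was -0.58 without NeoT replicate 3. PSMB11, the form of the thymus, had 0 counts in all libraries.

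Among the structural beta genes, PSMB2 (chromosome 1, 35599541 to 35641526) stood at 171, 163 and 167 CPM in A10, 102, 88 and 85.7 in NeoT, 133, 138 and 149 in T1, and 138, 135 and 139 in CA1. T1 and CA1 overlapped and lay between A10 above and NeoT below. It fell 1.81-fold in NeoT (adjusted p = 3.99e-09), with log2 -0.26 in T1 and -0.28 in CA1. PSMB4, also on chromosome 1 (151399573 to 151401937), had T1 as its lowest line. It stood at 224, 226 and 242 CPM in A10, 187, 178 and 188 in NeoT, 133, 135 and 139 in T1, and 154, 144 and 148 in CA1. No line overlapped another. The fall of PSMB4 was 1.7-fold in T1 (log2 -0.76, SE 0.04, adjusted p = 3.81e-09), 1.55-fold in CA1 and smaller in NeoT (log2 -0.32), while the gap between T1 and CA1 did not pass the test (log2 0.13, adjusted p = 0.0691, against 0.0317 with DESeq2). PSMB3 fell in all 3 derived lines, by 1.53-fold, 1.24-fold and 1.48-fold in NeoT, T1 and CA1. PSMB1 was 1.22-fold higher in CA1.

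**Figure D2:**
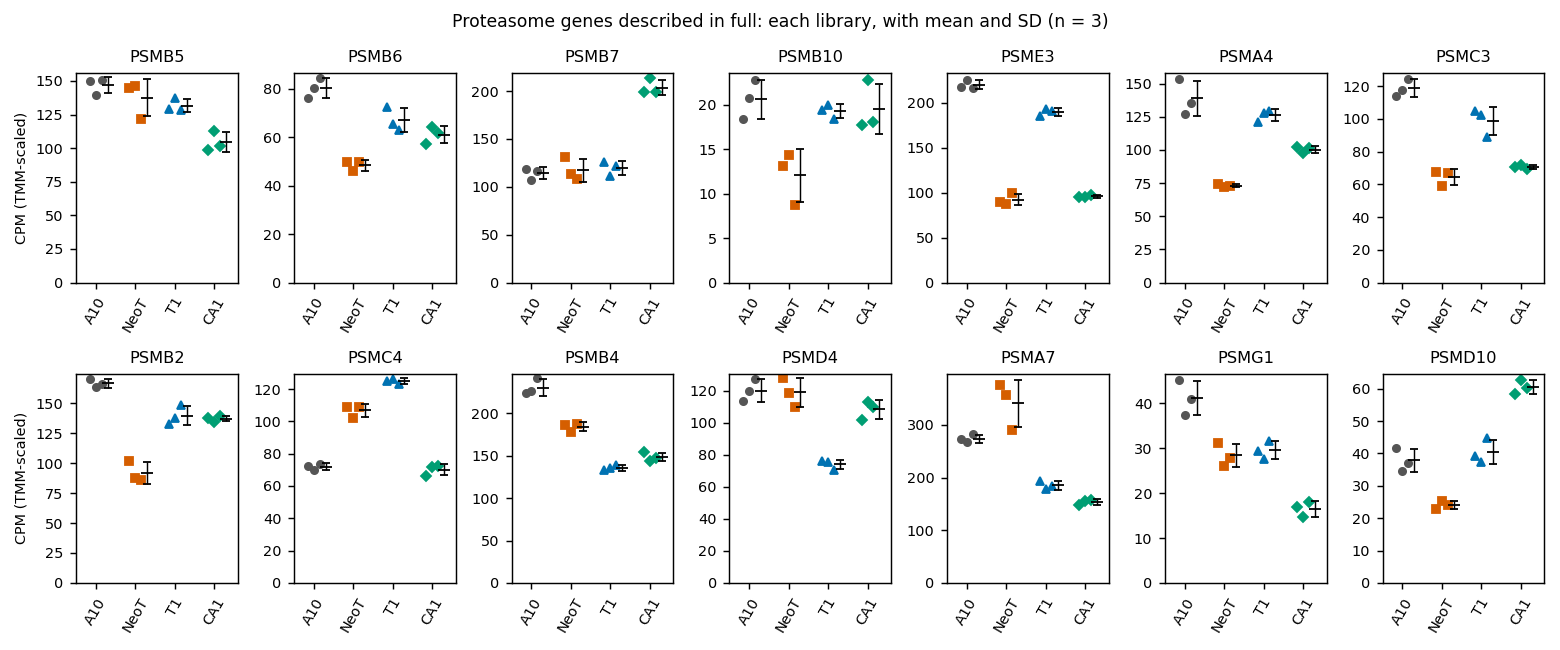
CPM of 14 proteasome genes in each of 12 libraries, by line, on axes that start at 0, with the mean and SD of each line's 3 libraries beside the points. PSME3 falls into 2 levels, near 220 and 190 CPM in A10 and T1 and near 92.1 and 96.2 in NeoT and CA1, and PSMB7 and PSMD10 are highest in CA1.

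The ATPase ring of the cap did not move as a unit: 1 of its 6 genes was higher and 2 lower in NeoT, 1 and 1 in T1, and 2 and 3 in CA1. With DESeq2, 2 were lower in T1, and with upper-quartile scaling 1 was higher in CA1. In the reported fit, 50%, 33.3% and 83.3% of the ATPases were called either way in NeoT, T1 and CA1. The shares of all genes tested were 70.4%, 51.9% and 70.9%. PSMC3 (chromosome 11, 47418775 to 47426439) stood at 114, 117 and 125 CPM in A10, 67.6, 59 and 67 in NeoT, 105, 102 and 88.7 in T1, and 70.7, 71.6 and 69.2 in CA1. NeoT and CA1 formed the low lines, close to each other without overlapping. PSMC3 fell 1.84-fold in NeoT (adjusted p = 9.37e-09) and 1.68-fold in CA1 (adjusted p = 8.23e-08), and CA1 against NeoT did not pass the test (log2 0.13, adjusted p = 0.157). Its 1.2-fold fall in T1 (adjusted p = 0.00686) was lost without T1 replicate 3 (log2 -0.20, adjusted p = 0.0537).

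PSMC4 (chromosome 19, 39971165 to 39981764) ran the other way. It stood at 72.5, 69.8 and 73.8 CPM in A10, 109, 102 and 109 in NeoT, 125, 126 and 123 in T1, and 66.2, 71.9 and 72.4 in CA1. A10 and CA1 overlapped at the low level, NeoT was above both and T1 above NeoT. The rise was 1.48-fold in NeoT (adjusted p = 2.79e-07) and 1.73-fold in T1 (log2 0.79, SE 0.026, adjusted p = 5.78e-09), and T1 to CA1 was a 1.78-fold fall (adjusted p = 2.86e-09). Among the other ATPases, PSMC5 was 1.69-fold lower in CA1, PSMC2 was 1.38-fold lower in NeoT, and PSMC1 and PSMC6 were 1.2-fold and 1.14-fold higher in CA1.

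PSMD8, a subunit of the lid that covers the side of the cap, shared the pattern of PSMC4 and lies near it on chromosome 19 (38374571 to 38383824). Its level was 175 ± 3.62 CPM in A10 and 249 ± 14.1 in NeoT, with 250 ± 14.1 in T1 and 156 ± 4.71 in CA1 (SD, n = 3). It was 1.42-fold higher in NeoT (adjusted p = 9.26e-07) and 1.43-fold higher in T1 (adjusted p = 1.46e-06), and slightly lower in CA1 (log2 -0.16, adjusted p = 0.0289). The 250 bases before the annotated start of each gene are shown because both genes rose in the same lines and share a chromosomal region. They come from RefSeq (GRCh38.p14), read 5′ to 3′ on the gene's strand, from chr19:39970915-39971164 (plus strand) for PSMC4 and chr19:38374321-38374570 (plus strand) for PSMD8. Capitals mark matches on either strand to TGACNNNGC, the core of the antioxidant response element, to the CCAAT box CCAAT, and to CCGGAAG, a core bound by ETS factors.
PSMC4: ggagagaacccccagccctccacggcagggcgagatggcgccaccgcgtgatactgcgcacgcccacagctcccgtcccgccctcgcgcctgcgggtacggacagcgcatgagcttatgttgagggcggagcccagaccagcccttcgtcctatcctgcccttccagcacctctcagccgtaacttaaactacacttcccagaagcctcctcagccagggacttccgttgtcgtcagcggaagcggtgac
PSMD8: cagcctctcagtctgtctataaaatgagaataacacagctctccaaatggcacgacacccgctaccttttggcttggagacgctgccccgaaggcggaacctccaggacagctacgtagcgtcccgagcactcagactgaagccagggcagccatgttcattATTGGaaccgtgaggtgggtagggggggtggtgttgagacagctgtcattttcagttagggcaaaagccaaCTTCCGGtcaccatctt
PSMC4 had no match in this window. PSMD8 had a CCAAT box on the minus strand 88 bases before the start and an ETS core on the minus strand 17 bases before it. Among the 38 proteasome genes with an entry, 10 held TGACNNNGC (26.3%, against 11.0% of 27305 promoters of the same length), 16 held CCAAT (42.1%, against 33.0%) and 9 held CCGGAAG (23.7%, against 8.82%). These are letter matches, described without a test, and no match here overlapped another in the sequences printed. PSMA7, PSMB1, PSMB6, PSMB7, PSMD4 and PSMG3 had no entry.

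Among the 11 other subunits of the 19S cap, PSMD8 included, 6 fell and 1 rose in NeoT, 2 fell and 2 rose in T1, and 4 fell and 2 rose in CA1. Of these 11, 54.5% fell in NeoT, 18.2% in T1 and 36.4% in CA1, beside 36.7%, 25.9% and 36.5% of all genes tested. The shares that rose were 9.09%, 18.2% and 18.2%, beside 33.7%, 26% and 34.4% of all genes. PSMD4, a receptor for ubiquitin chains (chromosome 1, 151254734 to 151267479), stood at 113, 120 and 127 CPM in A10, 128, 119 and 110 in NeoT, 76.1, 75.2 and 70.5 in T1, and 102, 113 and 110 in CA1. T1 was below every library of the other lines, and NeoT overlapped A10 and CA1. PSMD4 was 1.62-fold lower in T1 than in A10 (log2 -0.70, SE 0.059, adjusted p = 2.12e-07) and 1.46-fold higher in CA1 than in T1 (adjusted p = 3.7e-06). NeoT and CA1 did not pass the test against A10 (log2 -0.01 and -0.15, adjusted p = 0.879 and 0.078). With upper-quartile scaling the lower level in CA1 was called (log2 -0.18, adjusted p = 0.0328).

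The scaffold of the cap base parted by line: PSMD1 fell 1.6-fold in NeoT and 1.44-fold in CA1, while PSMD2 fell 1.26-fold in NeoT and was 1.15-fold higher in CA1. PSMD14, the enzyme that cuts ubiquitin chains off the substrate, stood at 94.4 ± 5.56 CPM in A10 and 73.6 ± 5.45 in NeoT, with 95.1 ± 1.43 in T1 and 106 ± 3.13 in CA1 (SD, n = 3). It was 1.29-fold lower in NeoT (adjusted p = 0.000174) and 1.12-fold higher in CA1 (adjusted p = 0.0419). The lid genes PSMD11 and PSMD12 fell 1.36-fold and 1.51-fold in NeoT. PSMD6 was 1.21-fold higher in T1 and 1.12-fold lower in NeoT (adjusted p = 0.0496). PSMD7 fell 1.17-fold in T1 and 1.15-fold in CA1.

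PSME3, the PA28 gamma cap of nuclear proteasomes (chromosome 17, 42833397 to 42843760), had the largest fall of the family in NeoT. It stood at 218, 226 and 217 CPM in A10, 90, 87.2 and 99.2 in NeoT, 185, 194 and 191 in T1, and 95.3, 95.3 and 97.9 in CA1. NeoT and CA1 overlapped at the low level, and T1 was just below A10. PSME3 fell 2.39-fold in NeoT (log2 -1.26, SE 0.059, adjusted p = 2.65e-12) and 2.29-fold in CA1 (log2 -1.19, SE 0.023, adjusted p = 5.77e-12), against 1.16-fold in T1 (adjusted p = 0.00753). BECN1, which shares 300 exon bases with PSME3 on the opposite strand, fell by 0.94 in NeoT and by 0.61 in CA1 on the log2 scale and was at log2 0.13 in T1 (adjusted p = 0.226). Whether reads were counted by strand is not given in the sources used here, so reads of the shared stretch cannot be told apart.

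The partners of PA28, PSME1 and PSME2, which form a joint ring linked to antigen processing, lie beside each other on chromosome 14 (24136194 to 24138962 and 24143365 to 24146610) and did not move together. PSME1 stood at 132 ± 7.14 CPM in A10 and 137 ± 9.33 in NeoT, with 103 ± 2.43 in T1 and 167 ± 9.4 in CA1 (SD, n = 3). PSME2 stood at 75 ± 3.08 CPM in A10 and 48.9 ± 3.82 in NeoT, with 58.8 ± 2.7 in T1 and 60.5 ± 2.71 in CA1 (SD, n = 3). In NeoT PSME2 fell 1.53-fold (adjusted p = 9.04e-07) with PSME1 at log2 0.05 (adjusted p = 0.503), and in CA1 PSME1 was 1.26-fold higher (adjusted p = 0.000274) with PSME2 1.24-fold lower (adjusted p = 0.00135). In T1 both fell 1.28-fold. PSME2 shares 216 exon bases with RNF31 on the opposite strand. In all, 10 members share at least 100 exon bases with a gene of the table on the opposite strand, and the same limit holds for each: PSMC1 (4671 bases with NRDE2), PSMG4 (1388 with SLC22A23), PSMC5 (874 with FTSJ3), PSMD1 (559 with HTR2B), PSMG2 (468 with CEP76), PSMD6 (352 with PSMD6-AS2), PSMD13 (316 with SIRT3) and PSMD14 (159 with an antisense RNA) besides PSME3 and PSME2.

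The upstream sequences of the PA28 genes are shown because PSME3 fell most in NeoT and the adjacent PSME1 and PSME2 parted. They are RefSeq sequences (GRCh38.p14) from chr17:42833147-42833396 (plus strand) for PSME3, chr14:24135944-24136193 (plus strand) for PSME1 and chr14:24146611-24146860 (minus strand) for PSME2, with capitals as above.
PSME3: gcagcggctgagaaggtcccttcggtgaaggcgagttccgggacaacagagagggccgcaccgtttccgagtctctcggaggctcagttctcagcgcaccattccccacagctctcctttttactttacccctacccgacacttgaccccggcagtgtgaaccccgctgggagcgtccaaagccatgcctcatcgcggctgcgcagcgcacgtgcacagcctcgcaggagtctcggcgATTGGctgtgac
PSME1: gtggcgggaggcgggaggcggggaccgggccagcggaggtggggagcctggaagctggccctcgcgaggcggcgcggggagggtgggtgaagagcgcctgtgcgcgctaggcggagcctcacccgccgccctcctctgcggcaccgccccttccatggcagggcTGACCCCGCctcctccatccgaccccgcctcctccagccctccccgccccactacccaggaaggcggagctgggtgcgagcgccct
PSME2: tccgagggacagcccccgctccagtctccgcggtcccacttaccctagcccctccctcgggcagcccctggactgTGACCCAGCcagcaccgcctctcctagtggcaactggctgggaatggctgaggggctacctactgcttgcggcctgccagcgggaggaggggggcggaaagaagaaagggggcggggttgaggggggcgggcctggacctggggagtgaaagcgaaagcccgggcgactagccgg
PSME3 had a CCAAT box on the minus strand 12 bases before the start and no TGACNNNGC in this window. PSME1 and PSME2 each held 1 match to TGACNNNGC, TGACCCCGC 86 bases and TGACCCAGC 175 bases before the start.

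PSME4, the large cap PA200, fell 1.63-fold in NeoT (adjusted p = 3.55e-07) and stood within 1.02-fold of A10 in T1 and CA1. PSMF1, an inhibitor of the 20S core in isolated form, was 1.37-fold higher in NeoT (adjusted p = 1.33e-06), 1.13-fold lower in T1 and 1.18-fold lower in CA1. Against NeoT, CA1 was 1.62-fold lower in PSMF1 and 1.63-fold higher in PSME4.

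The assembly chaperones were lower in NeoT for 5 of 7 genes and higher for 1, and in CA1 lower for 3 and higher for 2, while 1 fell in T1. In NeoT 71.4% were lower and 14.3% higher, beside 36.7% and 33.7% of all genes tested. The CA1 shares, 42.9% lower and 28.6% higher, were near those of all genes (36.5% and 34.4%). In T1 14.3% were lower, beside 25.9% of all genes. PSMG1, which helps to build the alpha ring (chromosome 21, 39174769 to 39183514), stood at 45.1, 37.4 and 41.1 CPM in A10, 31.3, 26.1 and 27.9 in NeoT, 29.4, 27.6 and 31.6 in T1, and 16.8, 14.6 and 18 in CA1. A10 was highest, NeoT and T1 overlapped, and every CA1 library lay below all others. PSMG1 fell 2.5-fold in CA1 (log2 -1.32, SE 0.12, adjusted p = 3.28e-09), with log2 -0.54 in NeoT and -0.48 in T1. PSMG2, which acts as its partner, was 1.27-fold higher in NeoT and 1.32-fold higher in CA1, opposite to PSMG1. PSMG3 fell 1.39-fold in NeoT and 1.58-fold in CA1, and PSMG4 was not called in any comparison with A10.

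PSMD10 (gankyrin), a chaperone of the cap base (chromosome X, 108084207 to 108091542), stood at 41.7, 34.6 and 37.2 CPM in A10, 22.9, 25.4 and 24.1 in NeoT, 39.2, 37.4 and 44.7 in T1, and 58.3, 62.7 and 60.3 in CA1. NeoT was lowest and CA1 highest in every library, with T1 overlapping A10. It fell 1.57-fold in NeoT (adjusted p = 6.02e-06) and was 1.6-fold higher in CA1 (adjusted p = 2.51e-06). The difference between CA1 and NeoT was 2.51-fold (log2 1.33, SE 0.054, adjusted p = 4.13e-10). The other base chaperones, PSMD5 and PSMD9, fell 1.21-fold and 1.27-fold in NeoT. PSMD9 shares 436 exon bases with WDR66 on the same strand, and how reads of that stretch were divided is not given in the sources used here.

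Levels of different genes can be compared only per length, here CPM per kilobase of transcript. The median level in A10 was 99.8 for the alpha ring, 124 for the beta ring, 47.3 for the ATPases, 52.6 for the other cap subunits, 53.4 for the activators and inhibitor, and 24.0 for the chaperones. In every line the 20S rings had higher medians than any other group. The 3 catalytic genes were at 132 (PSMB5), 93.1 (PSMB6) and 117 (PSMB7) CPM per kilobase in A10. In CA1 the same values were 93.6, 70.8 and 208, so PSMB7 was the most abundant of the 3 there. PSMB10 was at 16.9 in A10 and 9.91 in NeoT. These values are descriptions, and the transcript actually used by each line was not measured.

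Taken as 1 list, genes that work with the proteasome but lie outside the family had positive median changes in the derived lines, small in T1. The listed group of assembly and cap parts had negative ones. Of 40 tested genes of a pathway list, 19 were higher and 12 lower in NeoT (47.5% and 30%, median log2 0.25). In T1 12 were higher and 7 lower (30% and 17.5%, median 0.07), and in CA1 25 and 12 (62.5% and 30%, median 0.42). Over all genes tested, the shares were 33.7% and 36.7% in NeoT, 26% and 25.9% in T1, and 34.4% and 36.5% in CA1. The medians over all genes were -0.04, -0.007 and -0.02. The list was described by these counts and medians and was not tested as a set. Among the 6 genes for assembly and cap parts outside the name rule, 3 rose and 3 fell in NeoT, 1 and 2 in T1, and 2 and 3 in CA1. The same shares of all genes apply. The median log2 fold changes of these 6 genes were -0.24, -0.25 and -0.18. POMP, the chaperone that matures the 20S core, fell by 0.83 in NeoT (adjusted p = 2.32e-07), 0.34 in T1 (adjusted p = 0.00445) and 0.54 in CA1 (adjusted p = 4.6e-05) on the log2 scale. IPO9, which carries proteasomes into the nucleus, fell 2.13-fold in NeoT, 2.35-fold in T1 and 3.1-fold in CA1.

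NFE2L1 is the transcription factor that raises proteasome genes when the protease is short. Its transcript did not pass the test in NeoT (log2 0.03, adjusted p = 0.752) or T1 (log2 0.07, adjusted p = 0.382) and was 1.23-fold lower in CA1 (adjusted p = 0.000699). DDI2, the protease that cuts NFE2L1, did not pass the test in any of the 3 lines (log2 0.18, 0.02 and -0.16, adjusted p = 0.402, 0.932 and 0.453). NGLY1, which removes sugars from NFE2L1, was 2.04-fold higher in NeoT, 1.23-fold in T1 and 1.42-fold in CA1. MAFK, a binding partner, was 2.03-fold higher in CA1. Of the 8 genes listed for this regulation, 5 rose and 0 fell in NeoT, 5 and 0 in T1, and 6 and 1 in CA1, where 33.7%, 26% and 34.4% of all genes rose.

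Further listed genes were higher by 2-fold or more. KIAA0368, a scaffold that binds proteasomes, was 3.12-fold higher in NeoT. ZFAND5, which binds proteasomes and speeds degradation, was 2.35-fold higher in CA1. ZFAND2A, a zinc finger partner of the cap, was 2.21-fold higher in NeoT and 2.38-fold higher in CA1. UBXN1, a cofactor of the unfoldase VCP, was 2.02-fold higher in NeoT.

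**Figure D3:**
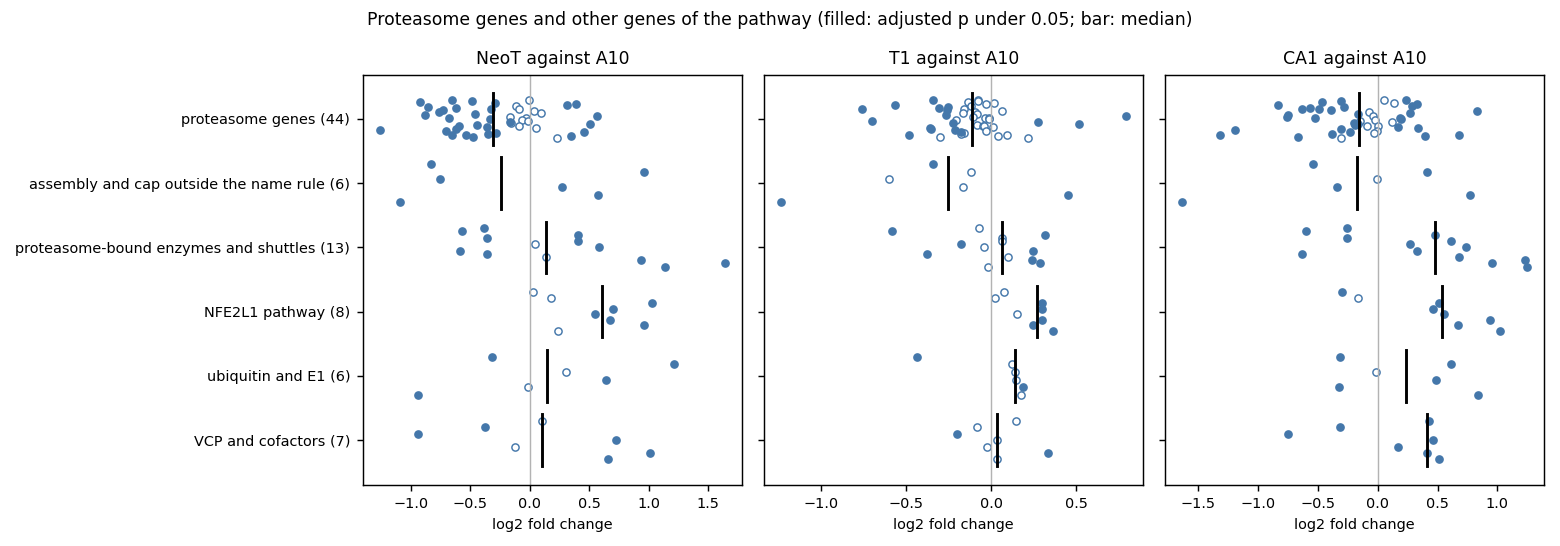
Log2 fold change against A10 in NeoT, T1 and CA1 for the 44 proteasome genes and for 5 groups of pathway genes outside the family (40 genes), 1 point per gene, filled where called, with each group's median as a bar and a separate scale per panel. The family medians lie at -0.31, -0.11 and -0.16, and those of the 8 genes of the NFE2L1 pathway at 0.61, 0.27 and 0.53.

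PSMC4, PSMD8, PSMB4 and PSMD4, which stood out in T1, lay in stretches of chromosome where other genes had shifted too. For each member, the tested genes within 5 Mb on either side were taken, other proteasome genes left out. PSMC4 had 201 such neighbours, whose median log2 fold change against A10 was 0.54 in NeoT, 0.57 in T1 and 0.08 in CA1, beside 0.57, 0.79 and -0.04 for PSMC4. PSMD8 had 173 neighbours, largely the same genes, with medians of 0.50, 0.54 and 0.01 beside its 0.51, 0.52 and -0.16. In both cases gene and surroundings were higher in NeoT and T1 and near A10 in CA1.

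The neighbours of PSMB4 (172 genes on chromosome 1) had medians of -0.45, -0.61 and -0.59 in NeoT, T1 and CA1, beside -0.32, -0.76 and -0.63 for the gene. PSMD4, in the same stretch, fell with its neighbours in T1 (-0.70 beside -0.61), but in CA1 it stood at -0.15 beside -0.58. The 75 neighbours of PSMA7 had a median of 0.51 in NeoT and -0.24 in T1 and CA1, beside 0.32, -0.57 and -0.83 for the gene. For the other large changes given next, the neighbours had moved less than the gene or the other way. The neighbours of PSME3 (173 genes) had medians of -0.10 in NeoT and 0.03 in CA1. Those of PSMG1 (50 genes) had -0.04 in T1, beside -0.48 for the gene, and -0.16 in CA1. Those of PSMB7 (101 genes) had 0.19 in CA1. The neighbours of PSMD10 (37 genes) had -0.40 in NeoT and -0.27 in CA1, beside -0.65 and 0.67 for the gene.

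Over the 44 genes, Pearson's r between a gene's log2 fold change and its neighbours' median was 0.24 in NeoT, 0.2 in CA1 and 0.78 in T1. Spearman's rho over the 44 genes was 0.11 in NeoT, 0.17 in CA1 and 0.41 in T1. Pearson's r in T1 was 0.3 over 40 genes without PSMC4, PSMD8, PSMB4 and PSMD4. These 4 were left out for their extreme values in the same data, so a lower r without them was built in. These are descriptions across genes: both measures come from the same libraries, and windows of nearby members overlap. What moved with these stretches of chromosome was not tested.

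**Figure D4:**
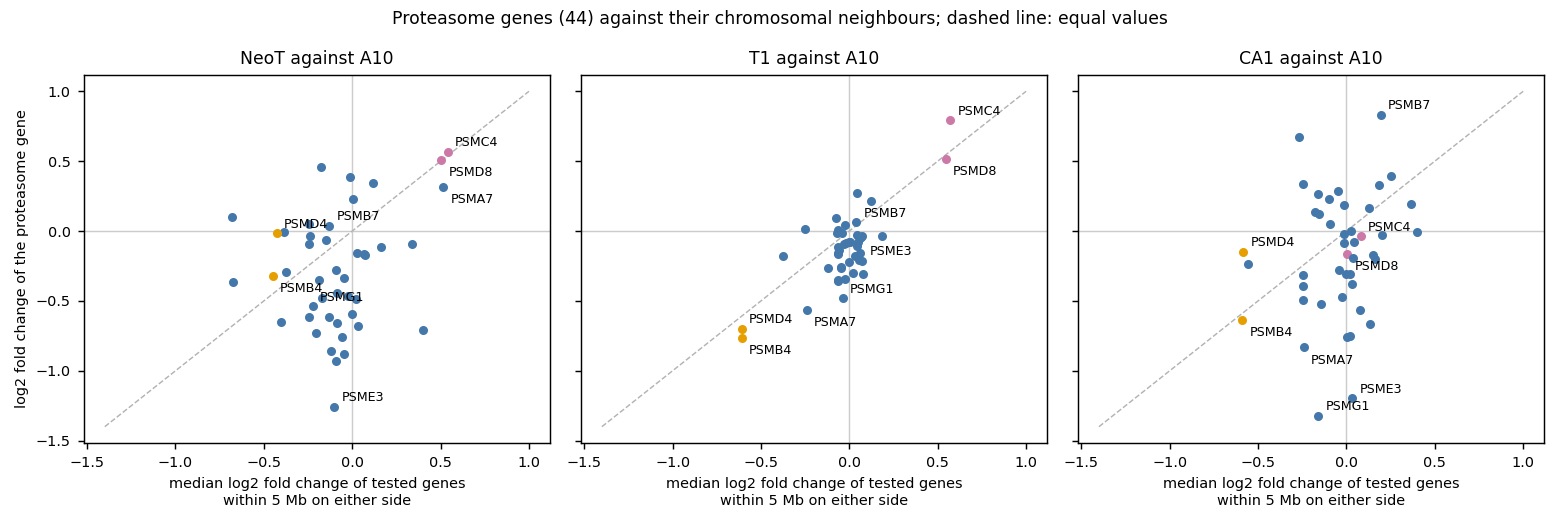
Log2 fold change of each of 44 proteasome genes against A10 (vertical) and the median log2 fold change of tested genes within 5 Mb on either side (horizontal), 1 panel per line, with a dashed line of equal values. In T1, PSMC4 and PSMD8 sit at the upper right and PSMB4 and PSMD4 at the lower left, while PSME3 and PSMG1 in CA1 lie far below neighbours near 0.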

How the data were processed

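The authors deposited a table of estimated counts (expected counts from Salmon, as the table's name says) per gene for 12 libraries, not scaled between libraries. Per the labels, DNase I was used on the RNA before library preparation (NEBNext Ultra). Per the submitters' processing notes the build was GRCh38 and limma was used, without a stated role, and annotation, versions and strand setting are not given in the sources used here. Counts were rounded, filtered by line with filterByExpr, scaled by TMM and fitted with edgeR 4.0.16 (R 4.3.3; quasi-likelihood, robust, a mean per line) over all 12 libraries. All 6 pairs of lines were compared, two-sided, with Benjamini-Hochberg adjustment over 14417 genes, and folds use a prior count of 2. Members, lists and named genes were chosen with earlier results of these data known.

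Named in full were PSMB5, PSMB6, PSMB7 and PSMB10, up to 4 called members with the largest change in each comparison with A10, and up to 2 in each other comparison. Pathway genes outside the family were named at an absolute log2 of 1 or more against A10, or as NFE2L1, DDI2, NGLY1 or POMP. Some genes that these rules or lists take are not reported here by name. PSMD8, PSME1, PSME2 and other members were named after their values were seen, to describe their roles. Promoters and positions come from RefSeq (GRCh38.p14), and transcript lengths and exon overlaps from GENCODE. Depth sets the counting error, and intervals or floors cover that error alone. Alternatives were RLE and upper-quartile scaling, other low-count filters, DESeq2 1.42.0, limma-voom 3.58.1, fits to the 2 lines compared, a replicate block, each library left out, T1 replicate 1 and NeoT replicate 3 left out, ribosomal RNA rows left out, and glmTreat against 1.5-fold.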

Additional observations from a re-analysis of the deposited data

How the results depend on the processing

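Among the 14 genes given in full, no log2 fold change called in the reported or the alternative fit changed direction. Directions of changes called in neither fit were not compared. The counts of called proteasome genes stayed within 1.5 times of those reported under the other scalings, filters, tools and left-out libraries run. The exception was glmTreat, which asks for more than 1.5-fold: 0 higher and 5 lower in NeoT against A10, 1 and 1 in T1 against A10, 1 and 5 in CA1 against A10, 3 and 1 in T1 against NeoT, 1 and 3 in CA1 against T1, and 2 and 3 in CA1 against NeoT, since it sets a higher bar by construction. Leaving out each library in turn gave 6 to 7 higher and 24 to 26 lower in NeoT against A10, 3 and 12 to 18 in T1, and 9 to 11 and 17 to 23 in CA1. The shares of all genes called in these fits are not given here. Counts within a role are small and moved with single libraries or settings. Depth set the floors of PSMA8 and PSMB11, which had 0 counts.

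Replicate numbers did not pair the libraries: over 18 same-number pairs of different lines the correlation of deviations ran from -0.069 to 0.088. With a replicate block, 6 proteasome genes were higher and 24 lower in NeoT against A10, and the other counts of called proteasome genes were as reported. 1 of 12 libraries correlated best with its own number in every other line, a hint from the data and not from the design.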
